A study of Mus musculus with 12 samples.

Results

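Cytosolic DNA sensing through cGAS and STING was followed over 7 genes in mouse bone marrow-derived macrophages labelled control or Dicer KO. Dicer1 encodes the RNase that matures most microRNAs. The genes were chosen by name, as the rows of the count files whose Ensembl identifier belongs to Mb21d1 (now Cgas), Tmem173 (now Sting1), Trex1, Samhd1, Tbk1, Ikbke or Enpp1. All 7 were among the 46078 gene identifiers of the files, and 6 of them passed the filter on low counts that left 13837 genes for testing. Trex1 is the exception, listed at 0 in all 12 libraries.

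The 12 libraries form 4 groups of 3: control vehicle, control LPS (lipopolysaccharide, the bacterial cell wall component sensed by TLR4), and the same pair of treatments on Dicer KO cells. Donors were male C57BL/6 mice, and by genotype all of them were ApoE-/-, controls included. Titles give the Dicer KO genotype as LysMcre/+;Dicerfl/fl;ApoE-/- and the control genotype as LysMcre/+;Dicer+/+;ApoE-/-, whereas the genotype field calls the controls wildtype and the names of their files mark the LysM locus as wildtype. The Cre recombinase sits in Lyz2, the lysozyme gene of myeloid cells, so deletion can be incomplete where Cre acted late or in few cells. Marrow cells were grown for 7 days with L929 supernatant as the growth factor source, and every culture received dilute ethanol overnight before 6 h of buffered saline (vehicle) or LPS, the latter at 100 ng/ul according to the labels. Nothing in the labels says that replicates came from separate mice, so the spread behind each p-value may be technical.

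Double-stranded DNA in the cytosol binds cGAS, which then makes the cyclic dinucleotide cGAMP. cGAMP binds STING on the endoplasmic reticulum, STING moves to the Golgi and recruits the kinase TBK1 or its relative IKK epsilon (encoded by Ikbke), and the kinase phosphorylates the transcription factor IRF3, which switches on the type I interferon gene Ifnb1. TREX1 degrades cytosolic DNA, SAMHD1 hydrolyses deoxynucleotides, and ENPP1 hydrolyses cGAMP outside the cell. TLR4 reaches the same kinases through the adaptor TRIF, and several sensor genes are known interferon-stimulated genes, so in macrophages LPS and DNA sensing share part of their machinery.

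Because Dicer1 was the deleted gene, the transcripts of the members are shown with matches to microRNA seeds, which are bases 2 to 8 of a microRNA and pair with a target message. Of 18 microRNAs known from macrophages or myeloid cells, all had a RefSeq sequence. The mature forms of 4 of them with matches in members that changed are printed 5′ to 3′ with the seed in capitals.
mmu-miR-27a-3p: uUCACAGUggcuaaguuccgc
mmu-miR-155-5p: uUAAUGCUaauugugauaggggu
mmu-miR-24-3p: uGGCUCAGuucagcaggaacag
mmu-miR-181a-5p: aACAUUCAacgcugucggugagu

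In the longest annotated 3′ untranslated region of each member (GENCODE M21), a match is the 7 bases complementary to the seed, shown in capitals with the bases around it and read 5′ to 3′ on the gene's own strand. A miR-27a-3p match was found in Mb21d1 at base 1323 of 2399, in Ikbke at base 61 of 708 and in Enpp1 at base 943 of 3892. A miR-155-5p match lies in Samhd1 at base 560 of 1866 and in Ikbke at base 146 of 708. Mb21d1 has a miR-24-3p match at base 440. Tmem173 has miR-24-3p matches too, at bases 49 and 139 of 826, and these are not printed. Tbk1 has its only match, to miR-181a-5p, at base 566 of 682.
Mb21d1 with miR-27a-3p: ccgtccctaggagtcACTGTGAat
Ikbke with miR-27a-3p: atattgtacccctacACTGTGAga
Enpp1 with miR-27a-3p: gtgacttttttttccACTGTGAag
Samhd1 with miR-155-5p: acagatgctgtaagaAGCATTAtc
Ikbke with miR-155-5p: attggccaacaaactAGCATTAct
Mb21d1 with miR-24-3p: caagtactatagtgaCTGAGCCat
Tbk1 with miR-181a-5p: tttttcctttggtcaTGAATGTgt

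Counted over the 18 microRNAs, matches to 5 were found in Mb21d1, to 5 in Ikbke, to 4 in Enpp1, to 2 each in Samhd1 and Tmem173, to 1 in Tbk1 and to 0 in Trex1. Untranslated regions of similar length had a median of 3 for Mb21d1, 1 for Ikbke, 5 for Enpp1, 3 for Samhd1, 1 for Tmem173 and 1 for Tbk1. Of regions as long as that of Ikbke, 9.51% held the miR-27a-3p match and 4.23% the miR-155-5p match. Among those as long as that of Mb21d1, 26.7% held the miR-27a-3p match. For the other printed matches, the share among regions of similar length was 39.9% for Enpp1 with miR-27a-3p and 26.6% for Mb21d1 with miR-24-3p. It was 10.8% for Samhd1 with miR-155-5p and 8.63% for Tbk1 with miR-181a-5p. A match is a description of the sequence, and no microRNA was measured in these libraries.

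Promoters are shown because LPS moved every tested member in control cells. Of the 7 members, 6 had a promoter in the RefSeq table (GRCm38.p6). No entry was matched to Tmem173, so its promoter was not searched. All 300 bases of each stretch, 250 of them before the start, were searched on both strands for 3 motifs. These were the interferon-stimulated response element core (GAAA, any 2 bases, GAAA), the STAT-binding element TTCNNNGAA and the kappaB consensus. Among all 32851 promoter stretches in that table, 3.44% held the first, 8.30% the second and 8.46% the third. Samhd1 held a STAT-binding element, at positions -235 to -227 from its start, and Enpp1 a kappaB consensus, at positions -103 to -94 from its start. A kappaB consensus also lies at positions -246 to -237 from one of the Trex1 starts, whereas none of the 3 motifs was found in this window of Mb21d1, Tbk1 or Ikbke. The 250 bases before the Samhd1 and Enpp1 starts follow on the strand of the gene, which is the minus strand for both. Matching letters are in capitals.
Samhd1, chr2:157135097-157135346: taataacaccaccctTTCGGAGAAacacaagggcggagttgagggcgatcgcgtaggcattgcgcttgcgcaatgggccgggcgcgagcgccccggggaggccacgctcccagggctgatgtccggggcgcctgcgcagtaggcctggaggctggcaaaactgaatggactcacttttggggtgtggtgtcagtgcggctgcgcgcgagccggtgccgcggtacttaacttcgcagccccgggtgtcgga
Enpp1, chr10:24712160-24712409: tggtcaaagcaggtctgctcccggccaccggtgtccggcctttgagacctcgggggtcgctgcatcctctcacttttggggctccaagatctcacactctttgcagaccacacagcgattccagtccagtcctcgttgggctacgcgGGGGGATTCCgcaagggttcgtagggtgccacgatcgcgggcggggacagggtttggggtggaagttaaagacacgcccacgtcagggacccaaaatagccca

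Counts on genes ranged from 16172600 to 18886948 per library. Dicer1 itself was at 42.6 to 52.5 CPM (counts scaled to the same library size) in the controls and at 14.3 to 20.1 CPM in Dicer KO, so its counts were lower but not gone. Such counts do not show whether the message is intact, so they do not give the share of cells that kept Dicer1. Lyz2 was at 3890 to 6040 CPM in the controls and at 12.7 to 20.6 CPM in Dicer KO, a level near 0 that goes against titles giving Dicer KO 1 Cre allele beside an unmodified one. The genotype field of the controls goes against their titles as well, so groups are named by their Dicer label, and the genotype comparisons differ in Lyz2 as well as in Dicer1, and the part of either in the results cannot be told apart. All 10 macrophage markers were tested and none was at 0. Their sum without Lyz2 was 7564 to 8271 CPM in control vehicle, 8751 to 8921 CPM in control LPS, 7184 to 8025 CPM in Dicer KO vehicle and 9396 to 9584 CPM in Dicer KO LPS. The summed level of 10 neutrophil markers, none at 0 throughout, was higher with LPS, at 101 to 135 CPM in control vehicle, 148 to 161 CPM in control LPS, 94.3 to 125 CPM in Dicer KO vehicle and 158 to 180 CPM in Dicer KO LPS. These markers did not move together. Means of S100a8, S100a9, Camp and Ngp were higher with LPS in both genotypes. Those of Ltf, Mpo, Cxcr2, Retnlg and Ly6g were lower in both, and that of Elane was lower in control alone. Ly6g was too low to test, with group means of at most 0.123 CPM. Sums over other cell types moved with the groups too, but few genes of each list carried them. Bst2 of the dendritic cell list averaged 145, 585, 463 and 966 CPM in the same order of groups. Tcf4, Ccr7 and Xcr1 of that list were also higher with LPS in both genotypes, whereas Itgax was lower in both. Flt3, Zbtb46, Clec9a and Siglech were too low to test, with group means of at most 0.434 CPM. Ighm of the B lymphocyte list averaged 92.8, 8.54, 44.1 and 6.27 CPM, and Cd79b was also lower with LPS. Pdgfrb of the stromal list averaged 0.626, 23.2, 0.426 and 34.5 CPM, and all other stromal genes had group means of at most 0.301 CPM. The part of such cells in the results was not tested. Among vehicle libraries, replicate 3 of control and replicate 2 of Dicer KO differed most from the others of their groups, with a chi-square per degree of freedom of 7.88 to 13.2 in pairs with them against 2.21 to 2.42 in the remaining pairs of those groups.

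The Dicer KO label went with more message of most members, above all of the sensor Mb21d1. Under LPS all 6 tested members were higher in Dicer KO than in control with TMM scaling. Of these, Ikbke, Samhd1 and Enpp1 were not called with library totals. In vehicle, 4 members were called higher (3 with library totals, which lost Enpp1), 1 lower and 1 not called, where called means an adjusted p under 0.05 in edgeR's quasi-likelihood test, as for every adjusted p below. Of all genes tested, 46.2% were called in that comparison, 25.0% higher and 21.2% lower. Under LPS, 6 of 6 were called higher, against a background of 55.8% called, with 28.8% higher and 27.0% lower. LPS itself raised 4 members and lowered 2 in control cells, where 79.1% of genes were called, 38.0% higher and 41.1% lower. In Dicer KO cells LPS raised 4, lowered 1 and left 1 not called, against 80.1% called, 37.4% higher and 42.7% lower. The LPS response differed between the genotypes for 3 members, with Tmem173 and Tbk1 called higher and Mb21d1 lower, beside 33.7% of all genes, 14.9% higher and 18.8% lower. Without the 2 libraries that stood apart, the counts were 4 higher and 0 lower in vehicle, 6 and 0 under LPS, 4 and 2 for LPS in control, 4 and 1 for LPS in Dicer KO, and 3 and 2 for the difference of the responses.

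**Figure D1:**
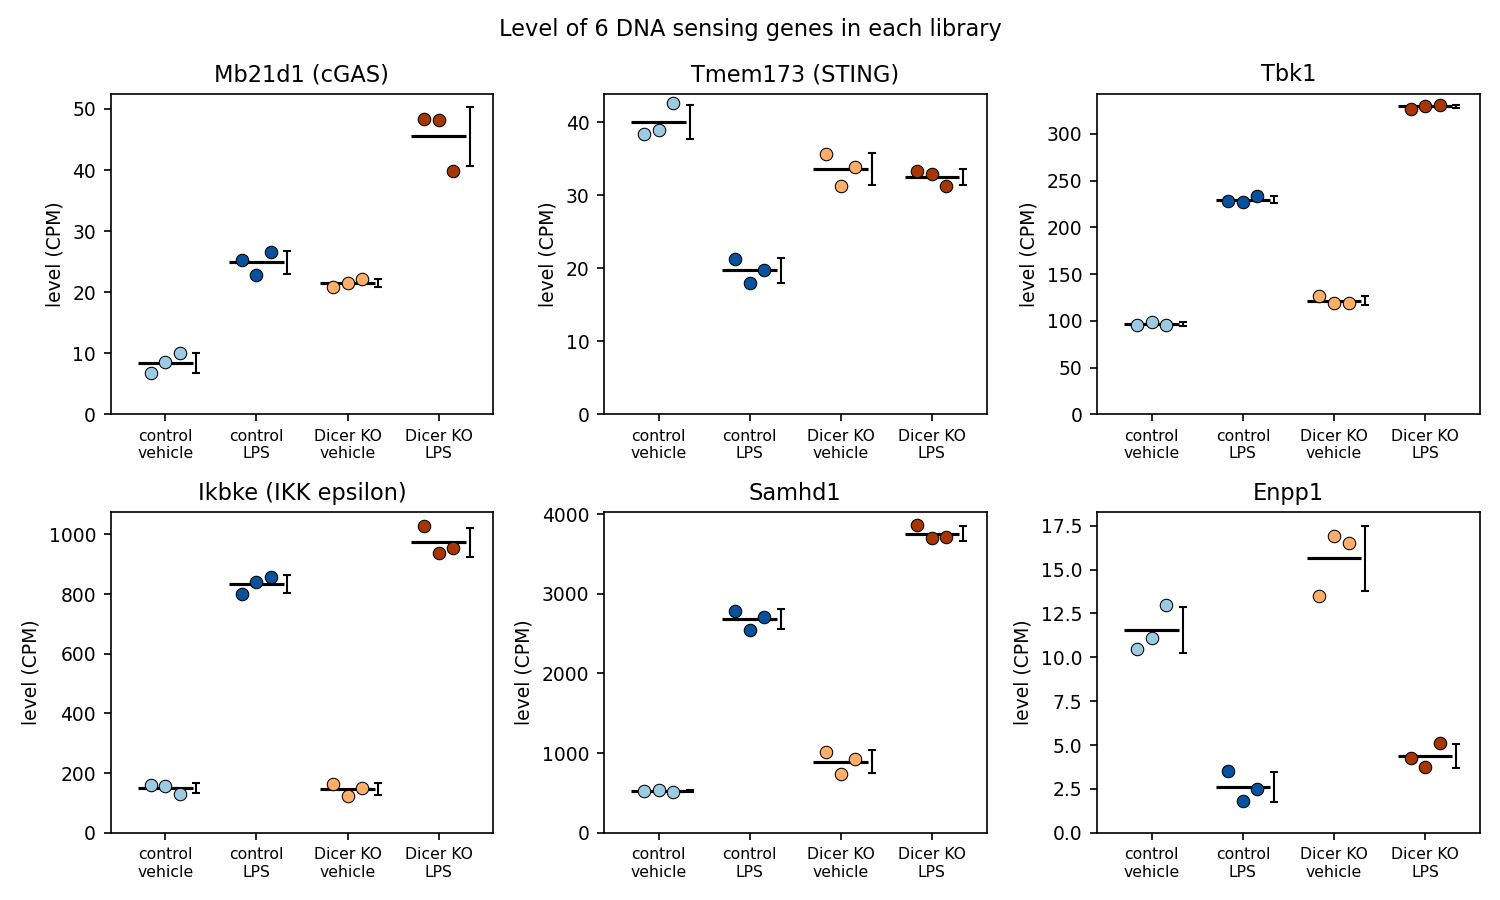
Level of 6 members in every library, in CPM on a linear axis from 0, by group. Points are libraries, horizontal lines the group means and vertical bars the SD of 3 libraries. The 3 control LPS libraries of Tmem173 sit between 18.0 and 21.3 CPM, below all other libraries, and the 3 Dicer KO LPS libraries of Mb21d1 between 39.9 and 48.4 CPM, above all others.

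Mb21d1 (ENSMUSG00000032344, chromosome 9, 78430526 to 78443237 on the minus strand of GRCm38), which encodes the DNA sensor cGAS, was the member most affected by genotype in vehicle. The control vehicle libraries read 6.72, 8.51 and 9.99 CPM, and the Dicer KO vehicle libraries 20.9, 21.5 and 22.2 CPM. Under LPS the controls read 25.2, 22.8 and 26.6 CPM and the Dicer KO libraries 48.4, 48.2 and 39.9 CPM. Unstimulated Dicer KO cells thus stood just below LPS-treated controls, with the highest library of the former at 22.2 CPM and the lowest of the latter at 22.8 CPM, and no pair of groups in the 4 pairwise comparisons overlapped. Dicer KO was 2.56-fold above control in vehicle (log2 1.36 ± 0.11 SE, n = 3 and 3, adjusted p = 6.61e-08) and 1.83-fold above it under LPS (log2 0.87 ± 0.10, adjusted p = 1.53e-06). LPS raised Mb21d1 2.96-fold in control (log2 1.56 ± 0.12, adjusted p = 1.04e-09) and 2.11-fold in Dicer KO (log2 1.08 ± 0.10, adjusted p = 2.75e-08). The response in Dicer KO was smaller by 0.49 ± 0.15 on the log2 scale (-0.49, adjusted p = 0.0224). That difference lost its call when replicate 1 of control vehicle was left out (adjusted p = 0.0626), and likewise for replicate 3 of control LPS (adjusted p = 0.0589) and replicate 3 of Dicer KO LPS (adjusted p = 0.0526). Exons on the opposite strand (Gm8093, 27 to 57 counts per library) cover 4.87% of the Mb21d1 exons, and the strand setting of the counting is not given in the sources used here.

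Tmem173 (ENSMUSG00000024349, chromosome 18, 35733679 to 35740554 on the minus strand), which encodes STING, was the only member that LPS lowered in control and for which no change was called in Dicer KO with TMM scaling. With library totals it was called lower in both genotypes. In vehicle the control libraries read 38.4, 38.9 and 42.7 CPM and the Dicer KO libraries 35.6, 31.3 and 33.8 CPM. After LPS the controls fell to 21.3, 18.0 and 19.8 CPM, whereas the Dicer KO libraries stayed at 33.3, 32.9 and 31.2 CPM, within the range of their vehicle libraries apart from the lowest. The fall in control was 2.03-fold (log2 -1.02 ± 0.07, adjusted p = 2.46e-10). In Dicer KO the log2 change was -0.05 ± 0.07 (adjusted p = 0.537). The difference between the 2 responses was 0.97 ± 0.10 on the log2 scale (adjusted p = 1.46e-06) and stayed called, at 0.90 to 1.03, in all 12 fits that each left out 1 library. As a result the genotype difference changed sign with treatment: Dicer KO was 1.19-fold below control in vehicle (log2 -0.25 ± 0.07, adjusted p = 0.00534) and 1.65-fold above it under LPS (log2 0.72 ± 0.08, adjusted p = 3.03e-07). The small difference in vehicle was no longer called without the 2 libraries that stood apart (log2 -0.15, adjusted p = 0.072).

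**Figure D2:**
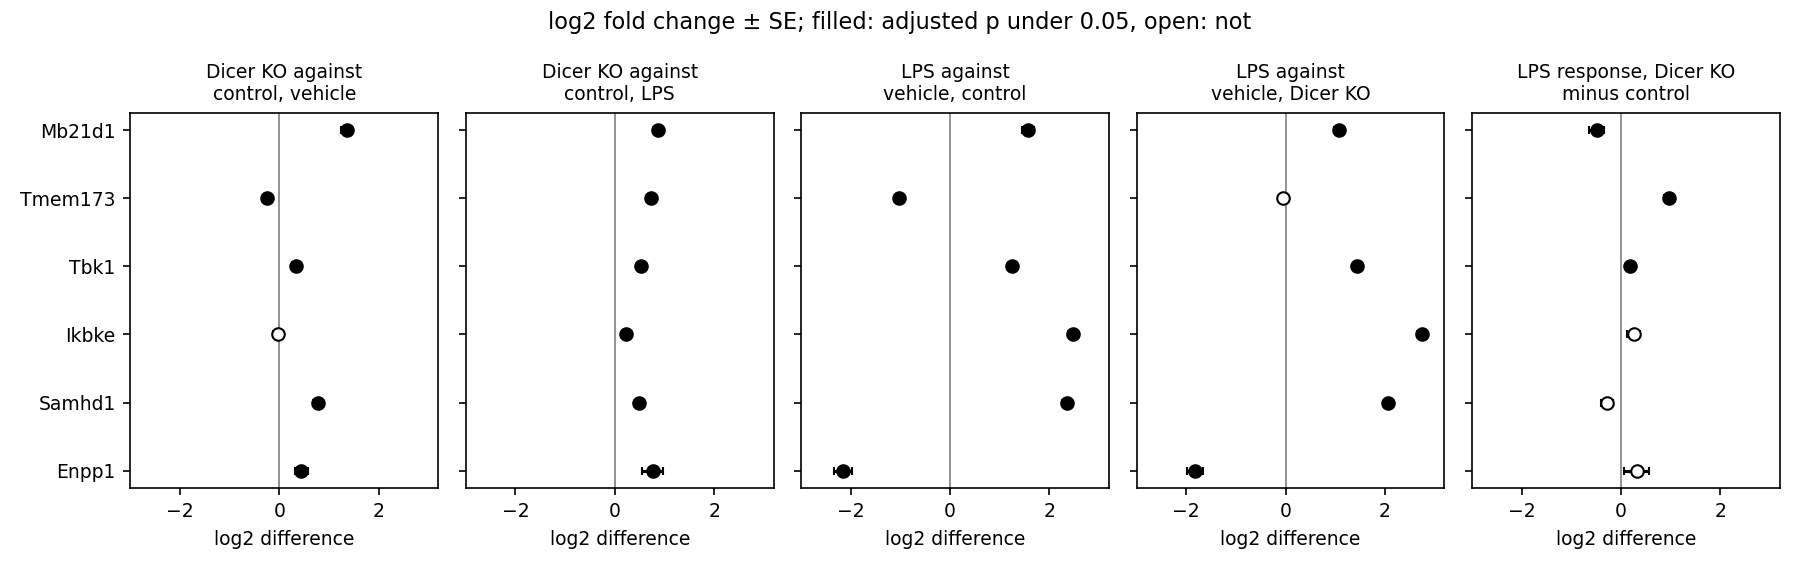
log2 fold change of 6 members in the 4 pairwise comparisons and in the difference of the LPS responses, with bars for the SE of the fit. Filled points were called at an adjusted p under 0.05. Tmem173 is at -1.02 for LPS in control and at -0.05, an open point, for LPS in Dicer KO.

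The messages of sensor and adaptor came closer to each other. Per kilobase of exon, the ratio of Tmem173 to Mb21d1 within a library, which does not depend on how libraries are scaled, was 8.61, 6.88 and 6.43 in control vehicle. It was 2.56, 2.19 and 2.29 in Dicer KO vehicle, 1.27, 1.19 and 1.12 in control LPS, and 1.04, 1.03 and 1.18 in Dicer KO LPS. STING message exceeded cGAS message by several fold in resting control cells and by little in LPS-treated cells of either genotype, with resting Dicer KO cells between them. LPS lowered the ratio 6.08-fold in control and 2.17-fold in Dicer KO, and Dicer KO was 3.10-fold below control in vehicle. Under LPS the genotypes overlapped, with Dicer KO 1.10-fold below control (exact permutation test, two-sided, p = 0.2). The other contrasts of this ratio did not overlap and gave p = 0.1, the smallest that an exact two-sided permutation test of 3 against 3 libraries allows.

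**Figure D3:**
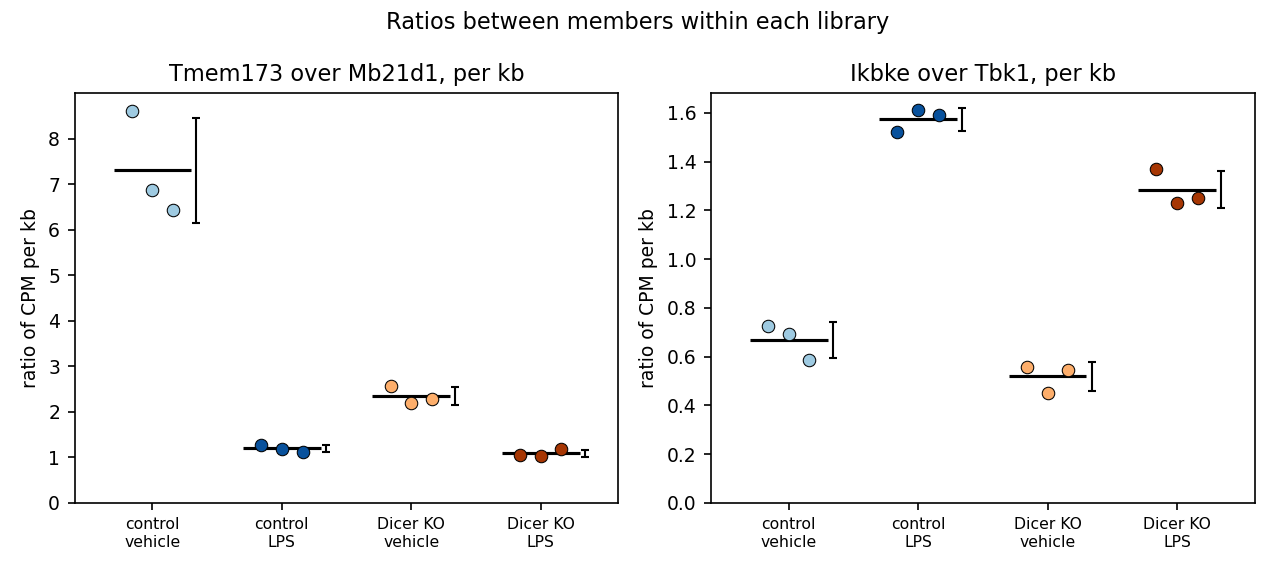
Ratio of exon length-adjusted levels within each library, Tmem173 over Mb21d1 on the left and Ikbke over Tbk1 on the right, on linear axes from 0. Points are libraries, lines group means, bars the SD of 3. The left ratio spans 6.43 to 8.61 in control vehicle and 1.03 to 1.27 over the 6 LPS libraries; the right ratio lies under 1 in all vehicle libraries and over 1 in all LPS libraries.

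The kinases came next in the chain. Tbk1 (ENSMUSG00000020115, chromosome 10, 121546455 to 121586787 on the minus strand), the kinase that phosphorylates STING and IRF3, read 95.9, 99.1 and 95.5 CPM in control vehicle, against 127, 119 and 119 CPM in Dicer KO vehicle. After LPS it read 228, 227 and 234 CPM in control and 327, 330 and 331 CPM in Dicer KO. The groups were tight and separate, so that even the 1.26-fold excess of Dicer KO in vehicle (log2 0.33 ± 0.05, adjusted p = 1.75e-05) left no overlap. Under LPS the excess was 1.43-fold (log2 0.52 ± 0.05, adjusted p = 2.22e-08). LPS raised Tbk1 2.37-fold in control (log2 1.25 ± 0.05, adjusted p = 1.37e-14) and 2.71-fold in Dicer KO (log2 1.44 ± 0.05, adjusted p = 1.34e-15). The difference of those responses, 0.19 ± 0.07 (adjusted p = 0.0303), lost its call in 7 of 12 fits that each left out 1 library, with adjusted p from 0.0534 to 0.087. Tbk1 lies 4.26 Mb from Lyz2, the gene that carries the Cre, on the same chromosome. Whether flanking DNA inherited with the Cre allele differs between the genotypes was not tested.

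Ikbke (ENSMUSG00000042349, chromosome 1, 131254343 to 131279606 on the minus strand), the LPS-inducible relative of TBK1, had no detectable genotype difference at rest. Control vehicle libraries read 161, 158 and 129 CPM and Dicer KO vehicle libraries 164, 124 and 150 CPM, with overlapping ranges (log2 -0.03 ± 0.10, adjusted p = 0.798). LPS brought it to 801, 842 and 858 CPM in control and to 1030, 939 and 955 CPM in Dicer KO. These were the steepest rises among the members, 5.59-fold in control (log2 2.48 ± 0.10, adjusted p = 1.36e-12) and 6.69-fold in Dicer KO (log2 2.74 ± 0.10, adjusted p = 3.81e-13). The genotypes under LPS did not overlap, but the 1.17-fold difference (log2 0.23 ± 0.09, adjusted p = 0.0492) was at the edge of the threshold and lost its call in 8 of 12 fits with 1 library left out, with adjusted p from 0.0544 to 0.164. The difference of the LPS responses was 0.26 ± 0.13 (adjusted p = 0.15) and was called without the 2 libraries that stood apart (log2 0.25, adjusted p = 0.00753). Opposite-strand exons of Gm28913 and Gm28914 cover 2.48% of the Ikbke exons, and their own counts, 103 to 816 and 79 to 507 per library, were also higher with LPS.

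Per kilobase, Ikbke stood below Tbk1 in every vehicle library and above it in every LPS library. Their ratio was 0.727, 0.691 and 0.585 in control vehicle and 0.559, 0.452 and 0.545 in Dicer KO vehicle. After LPS it was 1.52, 1.61 and 1.59 in control and 1.37, 1.23 and 1.25 in Dicer KO. Dicer KO was 1.29-fold lower in vehicle and 1.23-fold lower under LPS, without overlap in either case (exact permutation test, two-sided, p = 0.1 for both, the smallest that 3 against 3 allows).

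Of the genes that limit the pathway, Samhd1 was the most abundant and Trex1 could not be assessed. Samhd1 (ENSMUSG00000027639, chromosome 2, 157097533 to 157135265 on the minus strand), the deoxynucleotide hydrolase that restricts retroviruses in myeloid cells, read 523, 542 and 509 CPM in control vehicle, against 1010, 736 and 932 CPM in Dicer KO vehicle. After LPS it read 2790, 2540 and 2710 CPM in control and 3860, 3700 and 3710 CPM in Dicer KO. The lowest Dicer KO vehicle value belongs to replicate 2, one of the libraries that stood apart, and no 2 groups overlapped. Dicer KO was 1.70-fold above control in vehicle (log2 0.77 ± 0.09, adjusted p = 1.34e-06) and 1.40-fold above it under LPS (log2 0.49 ± 0.08, adjusted p = 9.35e-05). LPS raised it 5.11-fold in control (log2 2.35 ± 0.09, adjusted p = 3.31e-14) and 4.21-fold in Dicer KO (log2 2.07 ± 0.09, adjusted p = 1.54e-13). The difference of the responses was -0.28 ± 0.12 (adjusted p = 0.0829). It was called without Dicer KO vehicle replicate 2 (log2 -0.41, adjusted p = 0.000538) and without both libraries that stood apart (log2 -0.38, adjusted p = 5.1e-05). The STAT-binding element printed above lies in the upstream stretch of this gene.

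Enpp1 (ENSMUSG00000037370, chromosome 10, 24637914 to 24712159 on the minus strand), the membrane enzyme that hydrolyses extracellular cGAMP, went the opposite way under LPS. In vehicle it read 10.5, 11.1 and 13.0 CPM in the control libraries, against 13.5, 16.9 and 16.5 CPM in those of Dicer KO. After LPS it read 3.54, 1.82 and 2.48 CPM in control, against 4.28, 3.75 and 5.12 CPM in Dicer KO. LPS lowered it 4.44-fold in control (log2 -2.15 ± 0.18, adjusted p = 2.81e-09) and 3.55-fold in Dicer KO (log2 -1.83 ± 0.16, adjusted p = 8.64e-09). It was thus the one member that fell in both genotypes. Dicer KO was higher by 1.35-fold in vehicle (log2 0.44 ± 0.13, adjusted p = 0.0113) and by 1.69-fold under LPS (log2 0.76 ± 0.22, adjusted p = 0.00674). The first of these lost its call when replicate 1 of control vehicle was left out (adjusted p = 0.0524), or replicate 3 of Dicer KO vehicle (adjusted p = 0.0518). With library totals neither was called, at log2 0.31 (adjusted p = 0.0537) in vehicle and 0.41 (adjusted p = 0.101) under LPS. The difference of the LPS responses was 0.32 ± 0.25 (adjusted p = 0.367).

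Trex1 (ENSMUSG00000049734, chromosome 9, 109057933 to 109059734 on the minus strand), the main cytosolic DNA exonuclease, had 0 counts in each of the 12 libraries. In GENCODE M21 its exons are covered to 100% by exons of Atrip on the same strand, and Atrip had 0 to 5 counts per library. A count of 0 allows up to 3 counts, or 0.121 to 0.226 CPM depending on the library, but that limit covers counting error alone and does not cover reads left unassigned where genes overlap. Whether Trex1 is expressed in these cells, and whether it changed, was therefore not measured.

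On the scale of CPM per kilobase of exon, the order of the members in control vehicle was Samhd1 (57.3), Tbk1 (24.8), Ikbke (16.5), Tmem173 (14.6), Mb21d1 (2.04) and Enpp1 (1.12), and the ranges of Ikbke and Tmem173 overlapped. Dicer KO vehicle kept that order, at 97.5, 31.1, 16.2, 12.2, 5.22 and 1.52, with no overlap between neighbours. LPS put Ikbke ahead of Tbk1 in both genotypes, at 92.4 against 58.7 in control and 108 against 84.2 in Dicer KO. Tmem173 and Mb21d1 were neighbours after LPS, at 7.18 and 6.03 in control, where their ranges did not overlap, and at 11.8 and 11 in Dicer KO, where they did. Samhd1 led throughout, at 293 in control LPS and 410 in Dicer KO LPS, and Enpp1 was the lowest detected member, at 0.255 and 0.428.

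All fold changes above are relative to the bulk of the genes, since TMM scaling sets the typical gene near no change, and in bulk libraries fewer cells of a type and less RNA per cell cannot be told apart. With library totals in place of TMM, the median of all genes moved to -0.12 for Dicer KO in vehicle, -0.38 for Dicer KO under LPS, -0.58 for LPS in control, -0.85 for LPS in Dicer KO and -0.27 for the difference of the responses. On that scale Tmem173 fell with LPS in Dicer KO as well, by 0.80 (log2 -0.80, adjusted p = 2.94e-09), which was 0.05 above the median of all genes, and it fell by 1.55 in control, which was 0.97 below it. The difference between its responses was still 0.75, or 1.02 above the median. Ikbke under LPS was -0.13 in Dicer KO against control, and the difference of the Tbk1 responses was -0.03, so both changed sign, while relative to the median they were 0.25 and 0.24. Mb21d1 remained 1.23 higher in Dicer KO vehicle and 0.52 higher in Dicer KO LPS.

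Among 16 other DNA sensors and cofactors, 7 were higher and 1 lower in Dicer KO at rest, with a median log2 change of 0.16 against 0.01 over all genes, and 4 and 3 with library totals. Under LPS 6 were higher and 7 lower, with a median of -0.18, and 3 and 9 with library totals. Of all genes tested with TMM scaling, 25.0% were called higher and 21.2% lower at rest, and 28.8% and 27.0% under LPS. For the difference of the responses the shares were 14.9% and 18.8%. These shares stand beside the counts of every list below. Ifi204, which binds DNA and assists STING, rose from 156 to 172 CPM in control vehicle to 582 to 787 CPM in Dicer KO vehicle, a 4.31-fold difference (log2 2.11 ± 0.09, adjusted p = 2.02e-11). Zbp1, the sensor of Z-form nucleic acids, was 7.24-fold higher (log2 2.86 ± 0.13, adjusted p = 5.39e-09), and Aim2, the inflammasome DNA sensor, 1.60-fold (log2 0.68 ± 0.07, adjusted p = 2.96e-07). LPS raised all 3 further, Ifi204 to 1570 to 1750 CPM in control and 2590 to 2620 CPM in Dicer KO. As for Mb21d1, the responses of Ifi204 (log2 difference -1.46 ± 0.12, adjusted p = 1.88e-07) and Zbp1 (-2.20 ± 0.17, adjusted p = 1.82e-06) were smaller in Dicer KO, whereas that of Aim2 was larger (0.32 ± 0.09, adjusted p = 0.0137). Over the list, the Dicer KO response minus the control response was called above 0 for 1 gene and below 0 for 7, or for 0 and 11 with library totals, and a value below 0 can be a smaller rise or a steeper fall. Hmgb1, a chromatin protein that binds DNA, and Rad50, a DNA repair factor, fell with LPS in both genotypes and further in Dicer KO, with differences of -0.76 (adjusted p = 1.6e-06) and -0.65 (adjusted p = 0.000147).

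**Figure D4:**
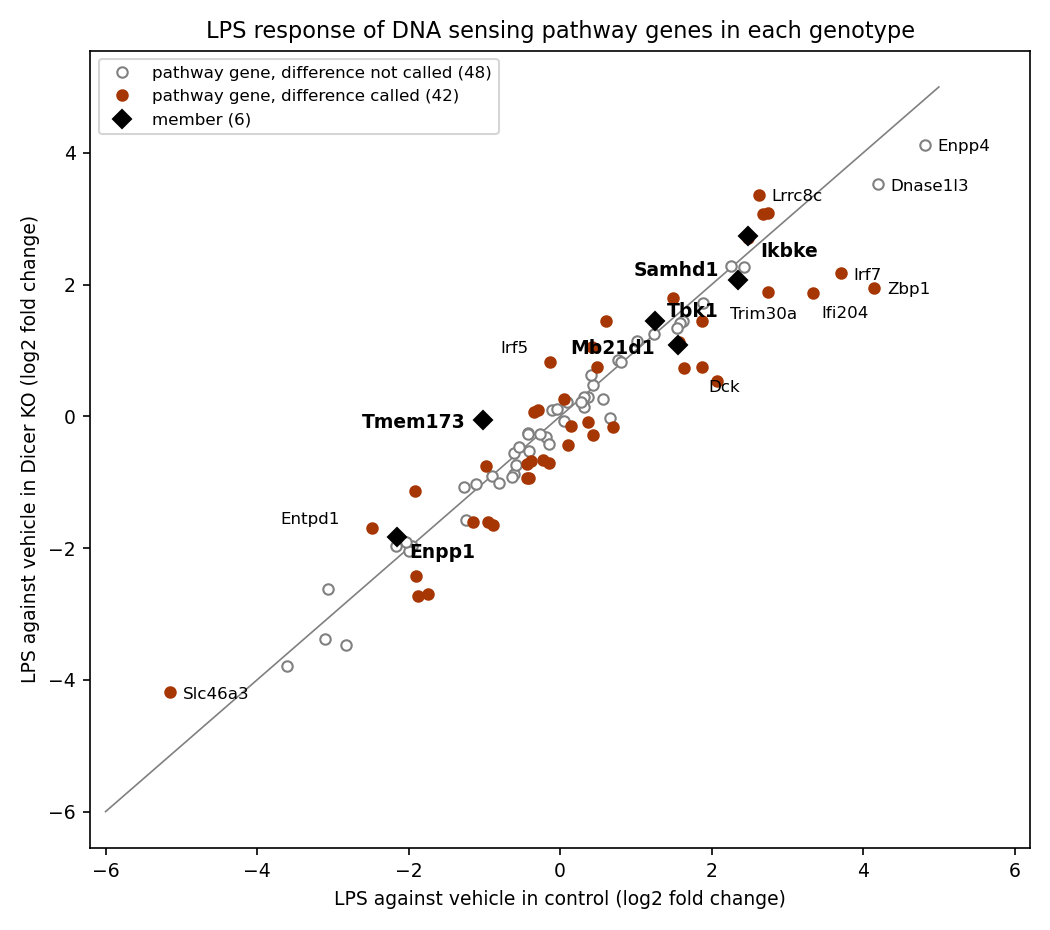
log2 fold change with LPS in control (horizontal axis) and in Dicer KO (vertical axis) for 90 tested pathway genes (circles) and 6 members (diamonds). The grey line marks equal responses, and filled circles are the 42 genes whose responses were called different. Ifnb1 and Enpp2 are left out because all 3 control vehicle libraries are at 0. Zbp1, Irf7 and Ifi204 lie below the line, and Tmem173, Irf5 and Slc46a3 above it.

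In the nucleic acid clearance list, 6 of 13 were called higher and 2 lower in Dicer KO at rest, and 5 were higher and 1 lower under LPS, or 3 and 7 with library totals. Medians were 0.25 at rest and 0.08 under LPS, against 0.01 and -0.03 over all genes. With TMM scaling, 46.2% of all genes were called at rest and 55.8% under LPS. Adar, which edits double-stranded RNA, was 2.30-fold higher at rest (log2 1.20 ± 0.07, adjusted p = 3.25e-10) and 1.72-fold higher under LPS (log2 0.78 ± 0.07, adjusted p = 2.5e-08). Opposite-strand exons cover 16.8% of Adar. Dnase1l3, a secreted DNase, went from 0.0405 to 0.125 CPM in control vehicle, 7 counts over 3 libraries, to 1.34 to 2.28 CPM in Dicer KO vehicle (17.9-fold, log2 4.16 ± 0.36, adjusted p = 4.84e-08). Under LPS it was at 1.51 to 2.17 CPM in control and 19.5 to 21.9 CPM in Dicer KO (11.1-fold, log2 3.48 ± 0.16, adjusted p = 7.59e-12). The lysosomal nuclease Pld3 was 1.44-fold higher at rest and 1.63-fold higher under LPS (log2 0.53 ± 0.06 and 0.70 ± 0.06, adjusted p = 1.26e-06 and 1.69e-08), while Pld4 differed by -0.01 and -0.00 (adjusted p = 0.915 and 0.987). LPS lowered Dnase2a, the lysosomal DNase, in both genotypes (log2 -1.99 and -2.05, adjusted p = 2.61e-11 and 1.43e-11), and opposite-strand exons cover 30.0% of it.

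The 9 enzymes of the deoxynucleotide pool, from which SAMHD1 takes its substrates, mostly fell with LPS. They include enzymes that make deoxynucleotides and enzymes that break them down. In control cells 7 were called lower, and 8 were in Dicer KO. Medians were -1.24 and -1.07, against -0.06 and -0.10 over all genes. The shares of all tested genes that LPS lowered were 41.1% for control cells and 42.7% for Dicer KO cells. Dut, the dUTPase, fell 3.07 on the log2 scale in control (log2 -3.07 ± 0.26, adjusted p = 2.98e-09). That fall was from 299 counts over the vehicle libraries to 23 over the LPS libraries. Tk2, a mitochondrial thymidine kinase, fell by 1.11 in control (log2 -1.11, adjusted p = 1.76e-10). Dck, deoxycytidine kinase, was the single member of the list that rose, from 55.1 to 66.9 CPM to 204 to 228 CPM in control (log2 1.88 ± 0.09, adjusted p = 5.86e-11). In Dicer KO it started at 94.8 to 125 CPM and reached 189 to 192 CPM, so that the rise was smaller (log2 difference -1.13 ± 0.13, adjusted p = 1.42e-05), and with library totals it was not called in Dicer KO (adjusted p = 0.974). Between the genotypes, 1 gene of the list was higher and 2 lower in Dicer KO at rest, and 0 higher and 3 lower under LPS, beside 46.2% and 55.8% of all genes called. Without the 2 libraries that stood apart, those counts were 2 and 2 at rest and 0 and 5 under LPS.

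The list for cGAMP transport and hydrolysis holds 17 genes, and it also takes in relatives of such genes and other nucleotide enzymes. Whether each acts on cGAMP was not tested. Of the 17, 12 could be tested, and with LPS 8 of them were higher and 3 lower in Dicer KO, with a median of 0.41 against -0.03 over all genes. With library totals those counts were 2 and 4. At rest 3 were higher and 5 lower, with a median of -0.15. Enpp4, a relative of Enpp1, was 5.92-fold higher at rest (1.47 to 1.71 against 5.51 to 12 CPM, log2 2.57 ± 0.28, adjusted p = 2.27e-05) and 3.63-fold higher under LPS (44.0 to 47.6 against 162 to 168 CPM, log2 1.86 ± 0.14, adjusted p = 8.03e-07). Unlike Enpp1, Enpp4 rose with LPS in both genotypes. The folate and cGAMP carrier Slc19a1 fell with LPS, by 1.75 in control and 2.70 in Dicer KO on the log2 scale (-1.75, adjusted p = 2.81e-09, and -2.70, adjusted p = 1.88e-10). Slc46a3, a lysosomal carrier of the same family as the cGAMP importer SLC46A2, fell from 73.3 to 86.3 CPM to 1.83 to 2.60 CPM in control, the steepest fall on the list (log2 -5.15 ± 0.11, adjusted p = 5.26e-18). Lrrc8c, a channel subunit that passes cGAMP, rose 6.13-fold in control (log2 2.62 ± 0.08, adjusted p = 1.45e-15) and 10.2-fold in Dicer KO (log2 3.36 ± 0.08, adjusted p = 6.62e-17), with a difference of 0.74 ± 0.11 (adjusted p = 6.51e-05). Its relative Lrrc8b showed the opposite difference (-0.90 ± 0.09, adjusted p = 6.07e-07). Slc46a2 was listed at 0 in all libraries.

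For 22 genes of STING trafficking and modification, medians were near those of all genes at rest (0.02 against 0.01), with 7 higher and 2 lower in Dicer KO. Under LPS 5 were higher and 10 lower, and the Dicer KO response minus the control response was called above 0 for 1 gene and below 0 for 7, by smaller rises, steeper falls or changes of direction. With library totals those counts were 2 and 16 under LPS and 0 and 17 for the difference of the responses. Trim30a, which promotes STING turnover, rose 2.69-fold in Dicer KO at rest (137 to 147 against 331 to 427 CPM, log2 1.43 ± 0.08, adjusted p = 9.93e-11). Trim56, a ubiquitin ligase acting on the pathway, was 0.49 higher (adjusted p = 1.89e-06). Sel1l and Syvn1, the pair that removes proteins from the endoplasmic reticulum, were 0.35 and 0.42 higher (adjusted p = 5.75e-06 and 2.1e-06). Nlrx1, a mitochondrial protein that restrains STING and has opposite-strand exons over 11.9% of its own, was 0.88 lower in Dicer KO under LPS (-0.88, adjusted p = 1.79e-08), where control rose to 25.6 to 27.7 CPM and Dicer KO stood at 13.8 to 15 CPM. Surf4, a cargo receptor that returns STING to the endoplasmic reticulum, had LPS responses of 1.24 and 1.25 (adjusted p = 4.51e-14 and 3.68e-14, difference 0.01, adjusted p = 0.95).

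Scaffolds and regulators of TBK1 and IKK epsilon were counted next: of 14, 8 were called higher and 1 lower in Dicer KO at rest, and 10 higher and 4 lower under LPS. Their medians were 0.18 and 0.36, and with library totals the counts became 4 and 3 at rest and 4 and 5 under LPS. Azi2, a TBK1 adaptor, was 1.75-fold higher at rest and 1.78-fold higher under LPS (log2 0.81 ± 0.07 and 0.83 ± 0.07, adjusted p = 4.02e-08 and 5.39e-09). Tank, another adaptor, rose with LPS from 31.4 to 35.1 CPM to 214 to 226 CPM in control and from 37.3 to 40.3 CPM to 325 to 339 CPM in Dicer KO, and the response was 0.35 ± 0.08 larger in Dicer KO (adjusted p = 0.00162). Traf3, the ubiquitin ligase that links receptors to these kinases, had a response 0.63 ± 0.09 larger (adjusted p = 5.56e-05), whereas that of Tbkbp1, the third adaptor, was lower (-0.86 ± 0.11, adjusted p = 1.05e-05).

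**Figure D5:**
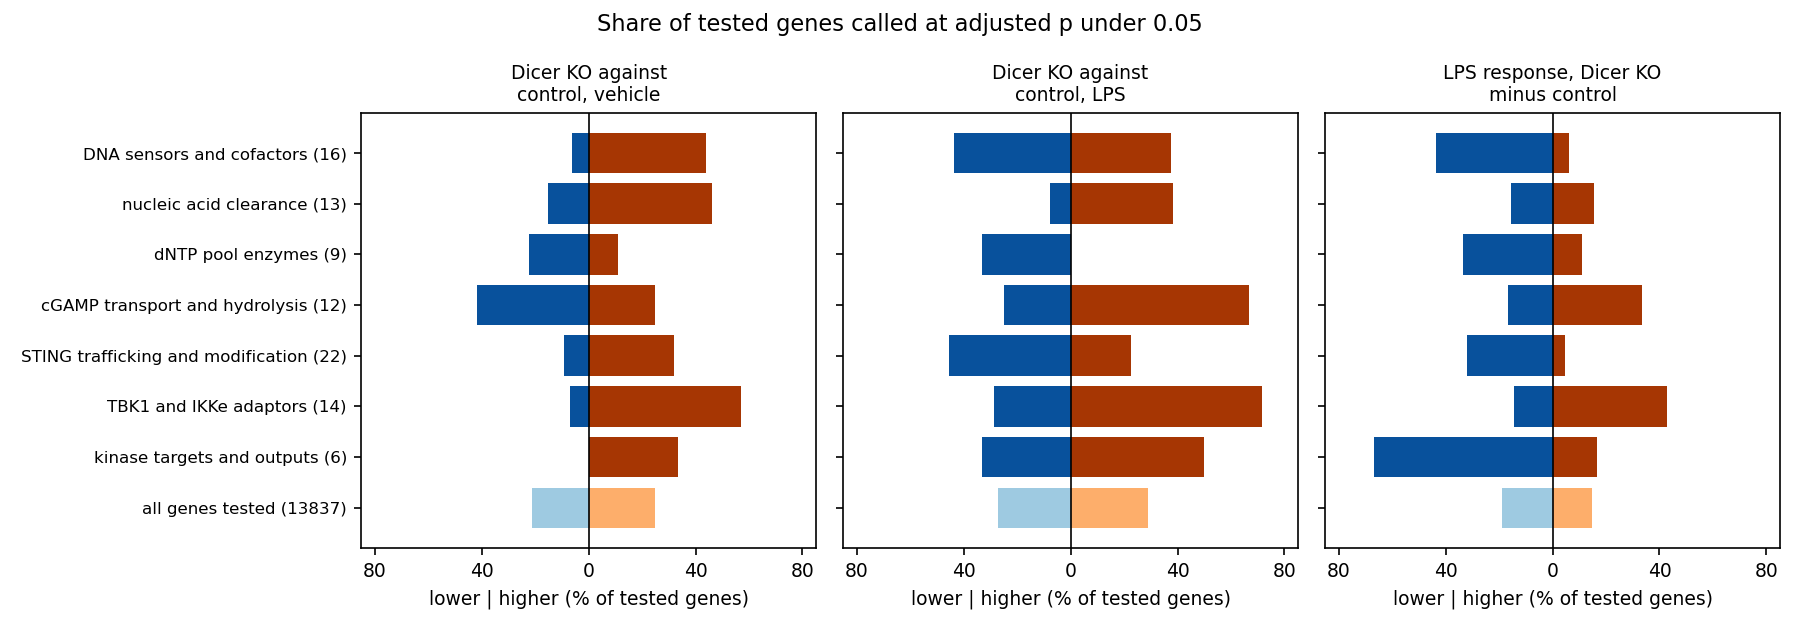
Share of tested genes called higher (right) and lower (left) in 7 pathway lists and in all genes tested, as percentages on a linear axis, for Dicer KO against control in vehicle and under LPS and for the difference of the LPS responses. Numbers in parentheses are genes tested. The bottom bars give the background, 25.0% higher and 21.2% lower in vehicle, 28.8% and 27.0% under LPS, and 14.9% and 18.8% for the difference.

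Downstream of the kinases, Ifnb1 was at 0 counts in all 3 control vehicle libraries and at 11, 3 and 5 counts in those of Dicer KO vehicle. LPS brought it to 8, 7 and 5 counts in control and to 27, 30 and 23 counts in Dicer KO. Set against a floor of 3 counts over the control vehicle group, Dicer KO vehicle was 7.44-fold higher and control LPS 10.2-fold higher (edgeR adjusted p = 0.000358 and 3.42e-05, without the floor). These ratios leave out the counting error of the higher group, so they are not strict lower bounds. Of the 19 counts in Dicer KO vehicle, 11 came from replicate 1, without which the ratio was 4.78-fold. Leaving out any 1 control vehicle library gave ratios of 4.93 to 5-fold for Dicer KO vehicle and 6.75 to 6.85-fold for control LPS. Under LPS, Dicer KO exceeded control 4.80-fold, with a 95% exact binomial interval of 2.91 to 8.28 that covers counting error only (adjusted p = 3.94e-05). Irf7, an interferon-induced factor that the same kinases activate, was 5.18-fold higher in Dicer KO at rest (142 to 157 against 615 to 863 CPM, log2 2.37 ± 0.10, adjusted p = 3.43e-11) and 1.79-fold higher under LPS (log2 0.84 ± 0.09, adjusted p = 1.16e-06). The lowest Dicer KO vehicle value of Irf7 and of Ifnb1 is that of replicate 2. Irf3, the main target, did not differ at rest beyond the spread (log2 -0.02 ± 0.07, adjusted p = 0.799) and was 0.31 lower under LPS (-0.31 ± 0.07, adjusted p = 0.00125). Irf5 overlapped between the genotypes at rest (224 to 226 against 220 to 233 CPM) and rose with LPS in Dicer KO, to 396 to 412 CPM, where control was at 198 to 218 CPM (log2 difference 0.95 ± 0.07, adjusted p = 2.65e-08). Irf5 has opposite-strand exons over 14.1% of its own. The genes Ifna4, Ifnl2 and Ifnl3 had no counts, and Ifna2 had 1 count in all.

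Genes outside the lists were compared with each member by the Pearson correlation of log2 CPM over the 12 libraries, among 9136 genes, as a description of likeness that the 4 groups largely set. Closest to Mb21d1 were Shisa5 and Cd72 (both 0.990) and the interferon-induced GTPase Irgm1 (0.989). Irgm1 was 2.20 higher in Dicer KO at rest and 1.37 under LPS on the log2 scale. Closest to Tmem173 were Zfp945 and Anapc16 (both 0.965) and Dapp1 (0.964). Like Tmem173, Zfp945 changed with LPS by -1.08 in control and -0.09 in Dicer KO, and Dapp1 by -1.41 and 0.07. Samhd1 was closest to Plod3, Trim56 and Apobec3, a deaminase that restricts retroviruses, and Tbk1 to Ankib1, Ikzf1 and Slc25a12. Ikbke was closest to Csf3r, Pim1 and Nupr1, and Enpp1 to Nceh1, Plxna2 and Zfand2a.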

How the data were processed

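Messenger RNA of 12 macrophage cultures, 4 groups of 3, was sequenced with a stranded kit, per the labels' protocols. The files deposited by the authors hold whole-number read counts per Ensembl gene. Per the submitters' processing notes, STAR 2.5, DESeq2 and the builds mm10 and GRCm38.p5 were used. Which program counted the reads, with which strand setting and which annotation, is not given in the sources used here. Reads on no gene (45.8 to 46.8%) were left out of library sizes. Symbols, exon lengths and positions came from GENCODE M21 (GRCm38), matching 45229 of 46078 identifiers.

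Counts were fitted with edgeR 4.0.16 (R 4.3.3): filterByExpr, TMM, robust quasi-likelihood, 1 mean per group over all 12 libraries, two-sided tests in 5 comparisons, and Benjamini-Hochberg adjustment over the 13837 genes tested. CPM use TMM-adjusted library sizes, and errors of log2 changes are SE of the fit. Counting error at 16172600 to 18886948 counts per library is small except for low genes such as Ifnb1. The fit was tested on simulated data.

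Members, 7 pathway lists, marker lists, microRNAs and motifs were chosen with earlier results of these data known. All members were named, up to 4 called genes with the smallest adjusted p per list and comparison, which were then followed elsewhere, and the 3 genes most like each member; other genes named from the lists were chosen after their values were seen. Alternatives were DESeq2 1.42.0, its size factors, library totals, no filter, only the groups compared, a replicate block and leaving out libraries.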

Additional observations from a re-analysis of the deposited data

Results flagged for a closer look

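The LPS response (log2) in Dicer KO minus that in control passed the test of the difference itself for 3 members and for the 28 pathway genes named in that comparison, and these values are listed by role. Among the members the difference was 0.97 for Tmem173, 0.19 for Tbk1 and -0.49 for Mb21d1.

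Among the DNA sensors and cofactors it was -2.20 for Zbp1, -1.46 for Ifi204, -0.76 for Hmgb1 and -0.65 for Rad50. In the clearance list it was -0.44 for Rnaset2a, -0.42 for Adar, 0.21 for Rnaseh2a and 0.23 for Dnase1l1. Of the deoxynucleotide enzymes, Dck was at -1.13, Rrm2b at -0.56, Dguok at -0.44 and Dctpp1 at 0.78. In the list for cGAMP transport and hydrolysis, Lrrc8b was at -0.90, Lrrc8c at 0.74, Entpd1 at 0.79 and Slc46a3 at 0.96.

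Within STING trafficking and modification the difference was -0.86 for Trim30a, -0.72 for Nlrx1, -0.46 for Sel1l and 0.26 for Copa. For the adaptors of the kinases it was -0.86 for Tbkbp1, 0.38 for Tax1bp1, 0.42 for Ddx3x and 0.63 for Traf3. For their targets it was -1.53 for Irf7, -0.49 for Stat6, -0.28 for Irf3 and 0.95 for Irf5. Rnaset2a has a close paralog, Rnaset2b, and reads may be shared or lost between them. Of the 28 pathway genes, 5 lost the call in some of the 12 fits that each left out 1 library: Rnaseh2a in 8 (adjusted p up to 0.134), Dctpp1 in 6 (up to 0.141), Irf3 in 6 (up to 0.0847), Rnaset2a in 5 (up to 0.0756) and Dnase1l1 in 1 (0.0532), by edgeR. Rnaseh2a, Rnaset2a and Irf3 also lost it without both libraries that stood apart, and Dnase1l1, Rnaseh2a, Dctpp1, Copa and Tax1bp1 with library totals. Of the members, Tbk1 lost it in 7 fits and Mb21d1 in 3. A value below 0 can be a smaller rise or a steeper fall with LPS in Dicer KO.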

How the results depend on the processing

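The number of genes called stayed within 1.5 times that reported in all 5 comparisons and every alternative run. Over alternatives, 22 to 26 member calls were made against 25, also as the range of fits with 1 library left out. Library totals gave 22 and moved the share of calls that were higher from 54.1, 51.6, 48.0, 46.7 and 44.3% to 32.8, 19.8, 26.0, 21.5 and 16.3%, in the order of the comparisons in the report. With library totals, the sign changed for the Tbk1 difference of responses (-0.03), Ikbke under LPS (-0.13), Dnase2a under LPS (-0.03) and the Rnaseh2a difference of responses (-0.02). Samhd1 and Enpp1 under LPS were then 0.14 and 0.41, not called (adjusted p = 0.143 and 0.101), and the Enpp1 difference at rest was 0.31 (adjusted p = 0.0537). Tmem173 with LPS in Dicer KO was 0.03 with DESeq2 size factors and in DESeq2, and Ikbke in Dicer KO vehicle was 0.02, 0.01 and 0.07 without replicates 1 and 2 of control vehicle and replicate 2 of Dicer KO vehicle, in that order; neither was called in these. Without the filter on low counts, Ikbke under LPS was not called (0.22, adjusted p = 0.0687). The cause of each change was not tested. Whether replicate numbers mark shared mice or batches could not be settled from these libraries. Deviations of 18 same-numbered pairs correlated at -0.232 to 0.182, 4 of them over 0.1. Those of 36 pairs with other numbers correlated at -0.317 to 0.342, 2 of them over 0.1. Of 12 libraries, 4 correlated best with their own number. With a replicate block, 25 member calls were made, and 6310, 7675, 10918, 11034 and 4636 genes were called, against 6394, 7724, 10948, 11078 and 4669. Leaving out both libraries that stood apart gave 26 member calls. This fit and the Ifnb1 ratios without single libraries were added after seeing the data.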

Other observations

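By their labels all donors were ApoE-/-. Apoe nevertheless gave 16.3 to 20.0 CPM in control vehicle, 3.67 to 4.90 CPM in control LPS, 4.94 to 6.14 CPM in Dicer KO vehicle and 0.979 to 1.5 CPM in Dicer KO LPS. Counts on a gene do not show whether its message is intact.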
